A study of Mus musculus with 8 samples.

Results

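The comparison asked how the effect of losing Runx1 on transcript levels differed between 2 stages of the mouse embryo. For each probe set, the knockout minus wild type difference at embryonic day 12 (E12) was taken, and the same difference at E8.5 was subtracted from it. All 8 arrays of the series entered: 2 of Runx1 knockout and 2 of wild-type embryos at E12, and 2 of knockout and 2 of wild-type embryos at E8.5. A negative stage-by-genotype difference means that the knockout stood lower, relative to wild type, at E12 than at E8.5, and a positive one that it stood higher. Of 45037 probe sets tested, 310 passed an absolute moderated t of 3 in this difference, and the 269 of these with a single gene symbol represented 247 of 18193 genes.

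By the study's methods, each array held total RNA of the embryo proper, from mice kept on a BALB/c background. The embryo proper is the embryo without its extraembryonic membranes. The knockout embryos carried the disrupted Runx1 gene in every cell, and the wild-type embryos carried it intact. The replicates were biological, but neither their litter, nor their sex, nor whether embryos were pooled was stated. The probes cover the mouse transcriptome on 1-colour Affymetrix arrays, and the values below are log2 intensities. Because these were whole embryos, fewer cells of a type and less RNA per cell cannot be told apart in any of them.

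RUNX1 is the DNA-binding subunit of core binding factor, which pairs with CBFβ and recognises a short sequence in the regulatory regions of blood genes. The first blood cells of the yolk sac, mostly primitive red cells, form without it. Definitive blood, which arises by budding from haemogenic endothelium and settles in the fetal liver, does not, and Runx1-null embryos die in midgestation with haemorrhage. The earlier stage lies before most definitive blood cells circulate, and the later one near the time of death.

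The arrays of the E8.5 wild type were the least alike of any group. The SD of the difference between the 2 replicates over all probe sets was 0.23 in E12 knockout, 0.49 in E12 wild type, 0.40 in E8.5 knockout and 0.83 in E8.5 wild type, and the residual variance at E8.5 was 2.92 times that at E12. The trophoblast and placenta genes, some of which the embryo also uses (Hand1, Eomes, Krt8, Krt18, Cdx2), averaged 2.09 over the stage mean in replicate 1 of the E8.5 wild type and lay under it in the other 3 arrays of that stage. Xist, the non-coding RNA behind X inactivation in female cells, was 5.33 and 10.33 in E12 knockout against 5.29 and 5.12 in E12 wild type, then 5.93 and 6.04 in E8.5 knockout against 11.51 and 6.25 in E8.5 wild type. It was therefore high in E12 knockout replicate 2 and E8.5 wild type replicate 1 and low in the other 6 arrays. The 99th percentile of the arrays lay between 10.51 and 11.09 at E12 and between 12.24 and 12.30 at E8.5, so a level at one stage set against the other rests on a scaling that was not known to be shared. The difference of differences compares genotypes within each stage first. That removes a shift of a whole stage, but not an unlike range of values, so its size also rests on the scaling.

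Runx1 itself was measured by 6 probe sets. The brightest read 7.10 and 6.86 in E12 knockout against 7.06 and 6.39 in E12 wild type, then 6.41 and 6.86 in E8.5 knockout against 6.16 and 5.95 in E8.5 wild type. The genotypes overlapped at E12, and the knockout lay above wild type at E8.5. Its stage-by-genotype difference was -0.32 (SE 0.39) and did not pass either threshold. All 6 probe sets had a negative difference, all 6 were higher in the E8.5 knockout, and 3 of the 6 were lower in the E12 knockout. A dimmer probe set was the only one past a t of 3, with a difference of -1.25 (SE 0.24): it read 4.09 and 4.27 in E12 knockout against 4.41 and 4.39 in E12 wild type, then 6.09 and 6.33 in E8.5 knockout against 5.26 and 5.09 in E8.5 wild type. Where these probes lie with respect to the disruption was not examined, so they do not check the labels.

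In limma's moderated test with Benjamini-Hochberg adjustment, 2 probe sets were called, 0.00444% of those tested, and both were lower. They measure Pf4 and Ctss. At an unadjusted p below 0.05 there were 842 probe sets, where 5% of all tested would be 2252. Past an absolute t of 3, the threshold that the study's methods used for these arrays, 192 probe sets were lower (0.426% of those tested) and 118 were higher (0.262%), where the t distribution alone would give 975 in all. The 310 probe sets are therefore described one by one and are not offered as a set of changed genes. In all 310, the 4 differences between an E12 knockout and an E12 wild-type array all lay on the same side of the 4 such differences at E8.5, which held for 4.96% of all probe sets below and 5.97% above. This follows closely from the threshold itself.

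Pf4, platelet factor 4, is a chemokine stored in the granules of megakaryocytes and platelets. It read 4.86 and 4.82 in E12 knockout against 10.31 and 10.79 in E12 wild type, then 5.0 and 5.0 in E8.5 knockout against 5.27 and 5.08 in E8.5 wild type. Only the wild type at E12 was high, and the other 6 arrays lay close together. The knockout minus wild type difference was -5.71 at E12 and -0.17 at E8.5, a stage-by-genotype difference of -5.53 (SE 0.28, limma adjusted p = 0.0202). The knockout at E12 and both genotypes at E8.5 lay near or under the array medians of 4.96 to 5.20, where no level above background was shown, so differences against such values, here and in the genes below, may understate the distance.

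Ctss, cathepsin S, is a lysosomal protease of macrophages and other antigen-presenting cells. It read 4.50 and 4.59 in E12 knockout against 7.86 and 7.80 in E12 wild type, then 4.46 and 4.47 in E8.5 knockout against 4.43 and 4.22 in E8.5 wild type. Again the E12 wild type alone stood apart. The knockout minus wild type difference was -3.29 at E12 and 0.14 at E8.5, a stage-by-genotype difference of -3.43 (SE 0.21, limma adjusted p = 0.0381). The size and sign of both differences held whichever array was left out. However, the call of Ctss was lost without any 1 of the 7 arrays other than E8.5 wild type replicate 2. That of Pf4 was lost without either knockout array of either stage or without E12 wild type replicate 2. Both calls were also lost with replicate number fitted as a block, over all arrays or within each stage.

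**Figure D1:**
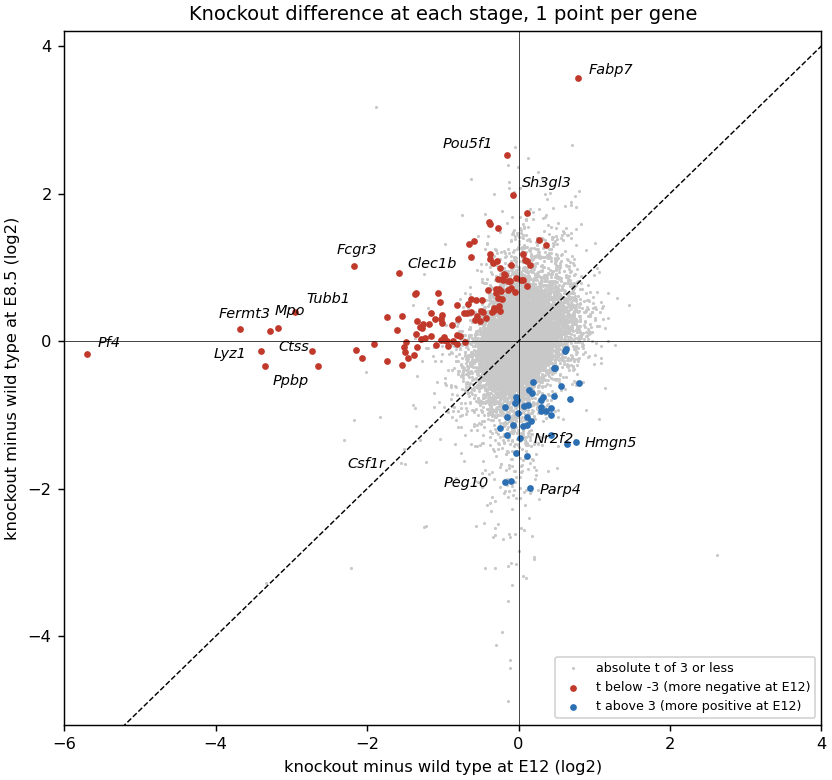
Knockout minus wild type difference of each of the 18193 genes (brightest probe set) at E12 on the horizontal axis and at E8.5 on the vertical axis, both in log2. Points on the dashed line have the same difference at both stages. The 119 genes with t below -3 form one arm to the left, where the knockout was lower at E12 (Pf4, Ctss), and one upward, where it was higher at E8.5 (Fabp7, Pou5f1), and the 42 genes with t above 3 lie mostly below, where the knockout was lower at E8.5 (Parp4, Peg10).

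The knockout difference on its own, at each stage, divided the 310 probe sets into kinds. Its background was 0.473% of all probe sets below a t of -3 and 0.182% above 3 at E12, and 1.18% below and 0.881% above at E8.5. Of the 192 lower probe sets, 87 were past that threshold at E12 only, 81 at E8.5 only, 2 at both stages with opposite signs and 22 at neither stage alone. Of the 118 higher ones, 8 were past it at E12 only, 96 at E8.5 only, 1 at both with opposite signs and 13 at neither. None of the 310 passed at both stages with the same sign. Each t value used 1 spread per probe set over both stages, while the residual variance at E8.5 was 2.92 times that at E12. The E8.5 counts may therefore be too high and the E12 counts too low. With 1 probe set per gene, 119 genes were lower and 42 were higher. These were 58 genes lower at E12 only, 42 genes higher at E8.5 only, 34 genes lower at E8.5 only and 3 genes higher at E12 only, with 24 genes in the remaining kinds.

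Among the 58 genes lower in the knockout at E12 only, 26 belonged to the lists of platelet, macrophage, granulocyte, red cell and blood progenitor genes, which hold 133 (0.731%) of the 18193 genes measured. Of those 133, 28 (21.1%) passed a t of -3 in the stage-by-genotype difference, beside 0.654% of all genes, and 0 passed 3. The lists were chosen with earlier results of these data known, so these counts are not independent support. The median knockout difference of the 58 genes was -1.28 at E12 and 0.08 at E8.5. In 37 of the 58 the wild type stood more than 1 log2 unit higher at E12 than at E8.5, and in 36 of these the knockout at E12 stayed within 1 unit of the knockout at E8.5. In 8 of the 58 the wild type stood more than 1 unit lower at E12. The knockout stood more than 1 unit lower at E12 than at E8.5 in 14 genes and more than 1 unit higher in 1. These shares rest on the level scale of each stage.

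Of the gene lists, that of megakaryocyte and platelet genes had the largest share of members past the threshold. Of 27 list members measured, 26 had a negative stage-by-genotype difference, 11 passed a t of -3 and none passed 3. Among all 18193 genes, 8697 had a negative difference and 119 passed a t of -3. The median difference was -0.94, against 0.02 for all genes, made of -0.94 at E12 and -0.01 at E8.5. Leaving out each array in turn gave medians from -1.07 to -0.62. The mean of the list was 0.69 below the stage mean in both E12 knockout arrays and 0.78 and 0.61 above it in the E12 wild type, while the E8.5 arrays were all between -0.09 and 0.19.

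Among secreted and cytoskeletal platelet genes, Tubb1, the β1 tubulin of the platelet's marginal microtubule ring, read 4.04 and 4.31 in E12 knockout against 7.16 and 7.08 in E12 wild type, then 4.72 and 4.89 in E8.5 knockout against 4.18 and 4.63 in E8.5 wild type (difference -3.35, SE 0.29). Ppbp, the precursor of another chemokine of platelet granules, read 3.89 and 4.19 in E12 knockout against 7.16 and 7.60 in E12 wild type, then 3.38 and 3.65 in E8.5 knockout against 3.98 and 3.72 in E8.5 wild type (-3.01, SE 0.32). Both repeated the pattern of Pf4, high in the E12 wild type alone. Plek, pleckstrin, a protein kinase C substrate of platelets and leukocytes, was also lower at E12 (-2.60, SE 0.58), with its other 2 probe sets at -0.58 and -0.64. Gp9, a subunit of the receptor for von Willebrand factor (-1.44), Slc35d3, a transporter needed for dense granules (-1.03), Rab27b, a small GTPase of granule secretion (-0.94), and F2rl2, a protease-activated receptor (-0.77), passed the t threshold too and were named after their values were seen.

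A second pattern held where the gene was already high at E8.5 in both genotypes. Fermt3 encodes kindlin-3, which activates integrins in blood cells, and its 4 probe sets had differences of -3.84, -1.80, -0.12 and -2.49, the third not keeping its sign without each array. The brightest read 3.75 and 3.73 in E12 knockout against 7.88 and 6.95 in E12 wild type, then 7.50 and 8.88 in E8.5 knockout against 6.92 and 9.14 in E8.5 wild type. The E12 knockout stood below the other 6 arrays, which overlapped across stages, and the knockout minus wild type difference was -3.68 at E12 and 0.16 at E8.5 (stage-by-genotype difference -3.84, SE 1.10).

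Itga2b, the αIIb integrin of megakaryocytes and of the earliest definitive progenitors, behaved likewise. It read 6.03 and 5.85 in E12 knockout against 8.07 and 7.63 in E12 wild type, then 7.51 and 7.76 in E8.5 knockout against 7.19 and 8.17 in E8.5 wild type (-1.86, SE 0.47). Clec1b, the platelet receptor for podoplanin, was 5.10 and 5.35 in E12 knockout against 6.72 and 6.90 in E12 wild type, then 6.29 and 5.68 in E8.5 knockout against 4.13 and 5.99 in E8.5 wild type. Its difference of -2.51 (SE 0.80) came from both stages with opposite signs, and neither stage passed the threshold alone. The genotypes overlapped at E8.5, and the difference was -1.57 without E8.5 wild type replicate 1 and -3.44 without replicate 2.

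**Figure D2:**
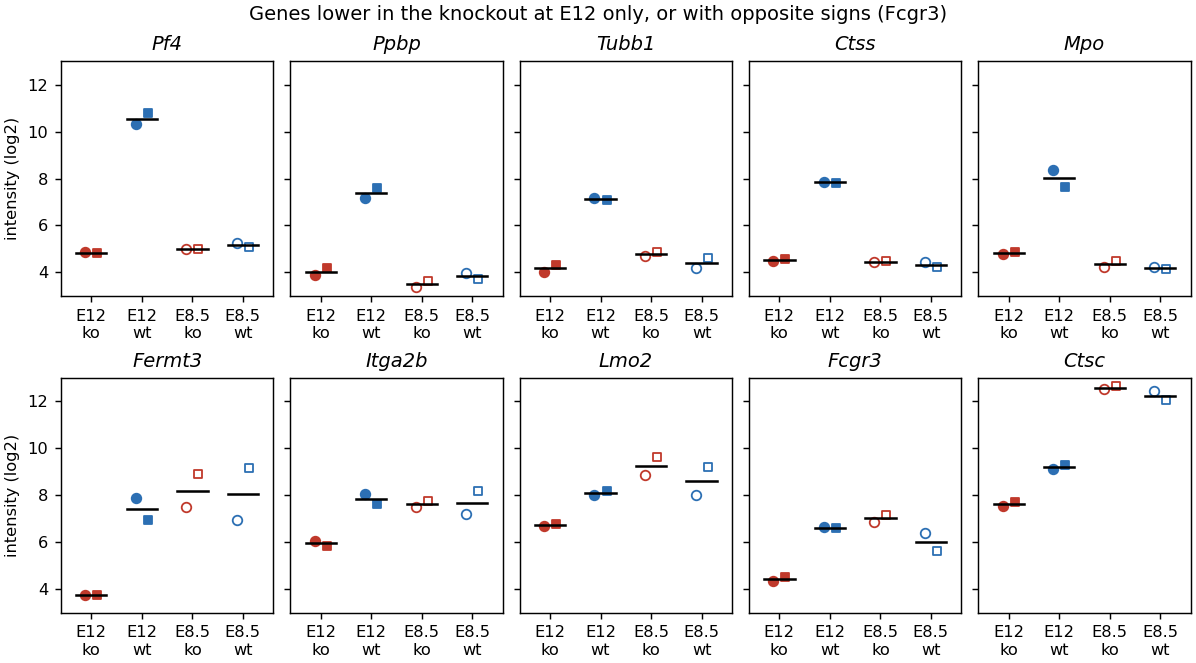
Log2 intensity of 10 genes in each array, with the groups E12 knockout, E12 wild type, E8.5 knockout and E8.5 wild type from left to right, circles marking replicate 1, squares replicate 2 and bars for the mean of 2. In the upper row the E12 wild type alone is high. In the lower row the E8.5 arrays are also high and the E12 knockout stands lowest, and for Fcgr3 the knockout is also above wild type at E8.5.

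The regions before the transcription starts of these genes are shown for the 2 called genes and for 2 whose window held RUNX letters, a pair picked after the search. Windows were the 250 bases before the annotated start, from RefSeq on GRCm38.p6, printed on the strand of the gene. Capitals mark the letters TGTGGT or TGCGGT, which RUNX proteins recognise, and GAGGAA, the core of the element bound by PU.1, a factor of myeloid cells. Both strands were searched, so a capital run can be the reverse complement, and matches to different sets could share bases.
Pf4: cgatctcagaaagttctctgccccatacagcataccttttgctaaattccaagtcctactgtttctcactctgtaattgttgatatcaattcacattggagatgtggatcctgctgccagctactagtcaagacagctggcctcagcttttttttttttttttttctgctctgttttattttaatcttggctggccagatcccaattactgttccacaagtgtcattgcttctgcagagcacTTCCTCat
Ctss: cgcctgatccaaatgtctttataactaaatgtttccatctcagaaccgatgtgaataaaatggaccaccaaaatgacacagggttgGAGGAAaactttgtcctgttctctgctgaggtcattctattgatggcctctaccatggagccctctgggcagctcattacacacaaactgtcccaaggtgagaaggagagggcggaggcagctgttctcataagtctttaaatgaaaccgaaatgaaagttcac
Fermt3: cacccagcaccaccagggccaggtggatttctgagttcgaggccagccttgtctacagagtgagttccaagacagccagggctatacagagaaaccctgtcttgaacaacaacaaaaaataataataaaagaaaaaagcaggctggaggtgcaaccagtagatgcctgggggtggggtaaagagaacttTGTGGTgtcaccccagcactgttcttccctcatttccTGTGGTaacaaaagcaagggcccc
Fcgr3: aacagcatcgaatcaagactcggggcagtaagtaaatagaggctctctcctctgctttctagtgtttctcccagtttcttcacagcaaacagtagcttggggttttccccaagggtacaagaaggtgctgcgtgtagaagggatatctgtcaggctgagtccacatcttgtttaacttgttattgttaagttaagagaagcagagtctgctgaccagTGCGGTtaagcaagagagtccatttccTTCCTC
The windows lie at chr5:90772185-90772434 on the plus strand for Pf4, chr3:95526536-95526785 on the plus strand for Ctss, chr19:7019470-7019719 on the minus strand for Fermt3 and chr1:171059404-171059653 on the minus strand for Fcgr3.

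Fermt3 held the RUNX letters at 61 and 24 bases before its start, and Fcgr3 held them at 33 bases before the first of its 2 annotated starts. Neither called gene had them in this window, and both had the PU.1 letters. Of the 58 genes lower in the knockout at E12 only, 48 had a window, and 15 of these (31.2%) held RUNX letters, beside 20.5% of the 14452 measured genes with a window and 18.6% of all 32851 windows. The PU.1 letters stood in 23 of the 48 (47.9%), beside 25.9% of measured genes and 23.3% of all windows. Among genes higher in the knockout at E8.5 only, 35 had a window, and the RUNX letters stood in 7 and the PU.1 letters in 7. Among genes lower at E8.5 only, they stood in 4 and 10 of 27. GATA letters, TGATAA or the same with A in the first or G in the last place, stood in 15 of the 48 (31.2%), beside 23.4% of measured genes and 26.5% of all windows. A gene counted if any of its windows held the letters, so the shares of all windows are in another unit than the shares of genes. These counts describe letters in a window and say nothing of binding.

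The macrophage and microglia list followed the platelet list. Of 35 members measured, 26 were lower and 12 passed a t of -3, beside 8697 and 119 of all 18193 genes, and none passed 3. The median stage-by-genotype difference was -0.61, made of -0.79 at E12 and -0.02 at E8.5, with medians from -0.87 to -0.38 as each array was left out. Besides Ctss, the largest was Lyz1, a lysozyme of phagocytes, at 3.72 and 3.74 in E12 knockout against 7.39 and 6.89 in E12 wild type, then 3.41 and 3.36 in E8.5 knockout against 3.79 and 3.24 in E8.5 wild type (-3.28, SE 0.35), where 2 of 3 probe sets were alike in sign. Coro1a, an actin regulator of leukocytes, was lower at E12 by the same pattern (-2.06, SE 0.35) in 2 of its 3 probe sets, and the dimmest was at -0.04.

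Fcgr3, a low-affinity receptor for IgG on phagocytes, was the only lower gene past the threshold at both stages, with opposite signs. It read 4.35 and 4.52 in E12 knockout against 6.62 and 6.59 in E12 wild type, then 6.87 and 7.15 in E8.5 knockout against 6.38 and 5.62 in E8.5 wild type. The knockout minus wild type difference was -2.17 at E12 and 1.01 at E8.5, and the groups did not overlap at either stage (difference -3.18, SE 0.38, limma adjusted p = 0.462).

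Other members past the threshold, named after their values were seen, were Ncf1, a subunit of the phagocyte oxidase (-2.02), Ctsc, the lysosomal dipeptidyl peptidase that activates granule proteases (-1.89), Tyrobp, the DAP12 signalling adaptor (-1.46), C1qc and C1qa of complement (-1.35 and -0.87), the perforin-like Mpeg1 (-1.32), Lyz2 (-1.27) and the fractalkine receptor Cx3cr1 (-1.0). Ctsc was high at E8.5 in both genotypes, at 7.56 and 7.73 in E12 knockout against 9.09 and 9.27 in E12 wild type, then 12.51 and 12.64 in E8.5 knockout against 12.42 and 12.04 in E8.5 wild type, but only 1 of its 3 probe sets had a negative difference. For Cx3cr1, only 1 of 2 probe sets had a negative difference. The tyrosine kinase Btk (-1.43), the integrin chain Itgb2 (-1.71) and the hyaluronan receptor Cd44 (-2.01), named likewise and outside the list, also passed.

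Csf1r, the receptor that macrophages need to survive, did not share the pattern. It read 7.85 and 7.68 in E12 knockout against 9.57 and 9.05 in E12 wild type, then 6.01 and 6.32 in E8.5 knockout against 8.84 and 6.79 in E8.5 wild type, so that the knockout was lower at both stages and the stage-by-genotype difference was 0.10 (SE 0.86). The E8.5 part rested on wild type replicate 1, which was also the array high in trophoblast markers. Without it the difference was -0.93. Csf1r too was named after its values were seen.

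Granulocyte and mast cell genes had a median nearer 0, at -0.15 over 22 members (-0.36 without E8.5 wild type replicate 1, -0.28 without E12 wild type replicate 2, -0.10 without E8.5 wild type replicate 2 and about 0 without E12 wild type replicate 1). Only 3 passed, all lower, beside 119 of all 18193 genes. Mpo, the myeloperoxidase of neutrophil granules, read 4.78 and 4.88 in E12 knockout against 8.38 and 7.63 in E12 wild type, then 4.23 and 4.49 in E8.5 knockout against 4.24 and 4.13 in E8.5 wild type (-3.35, SE 0.37). The calcium-binding S100a8 (-1.46, SE 0.41) and the eosinophil granule protein Prg2 (-1.23, SE 0.22) were also highest in the 2 arrays of the E12 wild type.

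In the blood stem and progenitor list, 21 of 26 members had a negative difference, beside 8697 of all 18193 genes. The median was -0.53 (-0.34 without E8.5 knockout replicate 2), but only Lmo2 passed, beside 119 of all genes below -3. Lmo2, a LIM protein that bridges blood transcription factors, read 6.70 and 6.77 in E12 knockout against 7.99 and 8.19 in E12 wild type, then 8.86 and 9.62 in E8.5 knockout against 8.01 and 9.19 in E8.5 wild type (-2.0, SE 0.59). The genotypes did not overlap at E12 and did at E8.5.

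Red cell genes stood apart from these. Of 26 members, 12 were lower and 14 higher, beside 8697 and 9496 of all 18193 genes. The median stage-by-genotype difference was 0.03, and the median knockout difference was -0.52 at E12 and -0.44 at E8.5. At E8.5 this rested on 1 array, since the list mean was 0.83 up in wild type replicate 2 and 0.16 down in replicate 1, relative to all arrays of that stage. Without replicate 2 of the E8.5 wild type the median difference was -0.50. Gata1, the master factor of red cells and megakaryocytes, was the only member past the threshold: it read 6.43 and 6.62 in E12 knockout against 8.13 and 8.0 in E12 wild type, then 7.60 and 8.07 in E8.5 knockout against 8.37 and 7.94 in E8.5 wild type (-1.22, SE 0.33). No member of the 23 haem and iron genes passed, with Slc40a1, the iron exporter, at -1.13 (SE 0.48) and Slc25a38, a mitochondrial carrier for haem synthesis, at -0.56 (SE 0.30).

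Of 29 genes listed as published RUNX1 targets, 22 had a negative difference and 4 passed, all lower, beside 8697 and 119 of 18193 genes. The 4 were Pf4, Mpo, Itga2b and the platelet lipoxygenase Alox12 (-1.03, SE 0.21). Pf4, Itga2b and Mpo were already counted in the platelet and granulocyte lists, so they are not a separate result. Of the 2 Alox12 probe sets, only 1 had a negative difference. The list's median was -0.14, and -0.32 and -0.31 without E12 wild type replicate 2 and E8.5 wild type replicate 1 and -0.02 without E12 wild type replicate 1. None of 20 genes of the RUNX family and its cofactors passed, with the factor Ets1 at -1.06 (SE 0.54) and the corepressor Tle4 at -0.89 (SE 0.65). Ccnb1ip1, a ubiquitin ligase known from meiotic crossing over, had the largest difference past the threshold of any gene in none of the lists, at 4.06 and 3.79 in E12 knockout against 6.66 and 6.49 in E12 wild type, then 8.61 and 9.08 in E8.5 knockout against 9.76 and 8.61 in E8.5 wild type (-2.31, SE 0.54).

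The other arm of the comparison came from E8.5. Among the 42 genes higher in the knockout at E8.5 only, the median knockout difference was -0.18 at E12 and 1.01 at E8.5. Fabp7, the lipid-binding protein of radial glia, read 10.02 and 10.47 in E12 knockout against 8.80 and 10.13 in E12 wild type, then 7.02 and 7.27 in E8.5 knockout against 3.01 and 4.14 in E8.5 wild type. The knockout minus wild type difference was 0.78 at E12, where the genotypes overlapped, and 3.57 at E8.5, where they did not (stage-by-genotype difference -2.79, SE 0.74). In the 29 neural progenitor genes around it no other member passed. Their median was -0.38, turned to 0.09 without E8.5 wild type replicate 1, was -0.18 and -0.15 without E12 wild type replicate 1 and E8.5 knockout replicate 2, and was -0.58 without E8.5 wild type replicate 2. At E8.5 the list lay 0.64 under the stage mean in E8.5 wild type replicate 1.

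Single genes of the early embryo also lay in this arm, while their list as a whole did not. Pou5f1, the pluripotency factor OCT4, read 4.41 and 3.92 in E12 knockout against 4.35 and 4.27 in E12 wild type, then 7.07 and 7.48 in E8.5 knockout against 4.14 and 5.38 in E8.5 wild type. It was high in the E8.5 knockout alone, 2.52 above wild type (stage-by-genotype difference -2.67, SE 0.58). Lin28a, an RNA-binding protein that blocks let-7 maturation, read 4.38 and 4.57 in E12 knockout against 4.79 and 4.69 in E12 wild type, then 12.11 and 11.67 in E8.5 knockout against 11.16 and 10.93 in E8.5 wild type (-1.11, SE 0.29). These were the 2 members past the threshold among 26 pluripotency and early embryo genes, of which 15 had a negative and 11 a positive difference. The list's median was -0.06 and ranged from -0.33 to 0.14 as each array was left out. Mesp1, a factor of nascent cardiac mesoderm, passed as well (-1.24, SE 0.40), as the only one of 30 somite and muscle genes.

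Heart genes gave the second most negative list median, -0.85 over 28 members. Of these members, 23 were lower and 4 passed, beside 8697 and 119 of all 18193 genes. Here the median was -0.21 at E12 and 0.49 at E8.5, so the larger part came from knockout embryos standing higher at E8.5. Tbx20, a T-box factor of the early heart, read 6.82 and 6.99 in E12 knockout against 7.27 and 7.08 in E12 wild type, then 8.96 and 8.29 in E8.5 knockout against 7.23 and 6.95 in E8.5 wild type (-1.81, SE 0.36). Myl2, the ventricular myosin light chain, read 8.29 and 8.84 in E12 knockout against 9.03 and 8.83 in E12 wild type, then 5.53 and 5.07 in E8.5 knockout against 4.19 and 4.04 in E8.5 wild type (-1.56, SE 0.35).

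Both genes were higher in each E8.5 knockout array than in either wild-type array of that stage. Tnnc1, cardiac troponin C (-1.40, SE 0.40), and Nkx2-5, a homeobox factor of heart progenitors (-0.78, SE 0.24), also passed. Heart list means at E8.5 were 0.56 and 0.06 above the stage mean in the knockout and 0.57 and 0.05 below it in wild type, so replicate 1 of each genotype carried most of the distance. Leaving out each array gave medians from -1.21 to -0.63.

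Sh3gl3, a membrane-curving endophilin, was 3.96-fold higher in the E8.5 knockout, at 8.43 and 8.29 in E12 knockout against 8.55 and 8.30 in E12 wild type, then 6.90 and 7.54 in E8.5 knockout against 5.25 and 5.22 in E8.5 wild type (-2.06, SE 0.34). Tcf21, a factor of splanchnic mesoderm (-2.0), and Rbm24, an RNA-binding protein of heart and muscle (-1.96), followed it. Both were named after their values were seen, and only 1 of 2 Tcf21 probe sets had a negative difference.

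Yolk sac endoderm and fetal liver genes had a median of -0.42 over 31 members. Of these members, 26 were lower and 3 passed, beside 8697 and 119 of all 18193 genes. That median was -0.11 without E8.5 wild type replicate 1, -0.21 without E12 wild type replicate 1 and -0.26 without E8.5 knockout replicate 2, and lay between -0.72 and -0.70 without any 1 of E12 wild type replicate 2, E8.5 knockout replicate 1 and E8.5 wild type replicate 2. Tdo2, which opens the tryptophan ring, read 3.53 and 3.48 in E12 knockout against 3.32 and 3.46 in E12 wild type, then 7.22 and 7.34 in E8.5 knockout against 5.35 and 5.73 in E8.5 wild type (-1.63, SE 0.25). It was 3.33-fold higher in the knockout at E8.5 and low in all 4 arrays at E12. Apoe, a carrier of lipoproteins that macrophages also make, differed at E12 instead, at 6.38 and 7.01 in E12 knockout against 7.75 and 7.83 in E12 wild type, then 12.47 and 12.40 in E8.5 knockout against 11.83 and 12.44 in E8.5 wild type (-1.40, SE 0.39). The endocytic adaptor Dab2 passed at -0.74 (SE 0.23) with neither stage past the threshold alone, and 3 of its 4 probe sets were alike in sign. Over the list, the median change from E8.5 to E12 was -3.39 in wild type and -3.95 in the knockout. The list thus stood higher at E8.5, on the level scale of each stage. Whether the E8.5 samples held yolk sac tissue was not tested.

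The transporters Slco4c1 (-1.13) and Slc7a9 (-0.95) and the carbonic anhydrase Car4 (-0.82), named after their values were seen, shared the pattern of Tdo2, high at E8.5 and higher in the knockout there. Tdo2 was also the only one of 18 maternal decidua genes to pass, in a list whose median of -0.44 turned to 0.02 without E8.5 wild type replicate 1 and was -0.11, -0.14 and -0.19 without E8.5 knockout replicate 1, E8.5 wild type replicate 2 and E12 wild type replicate 1.

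**Figure D3:**
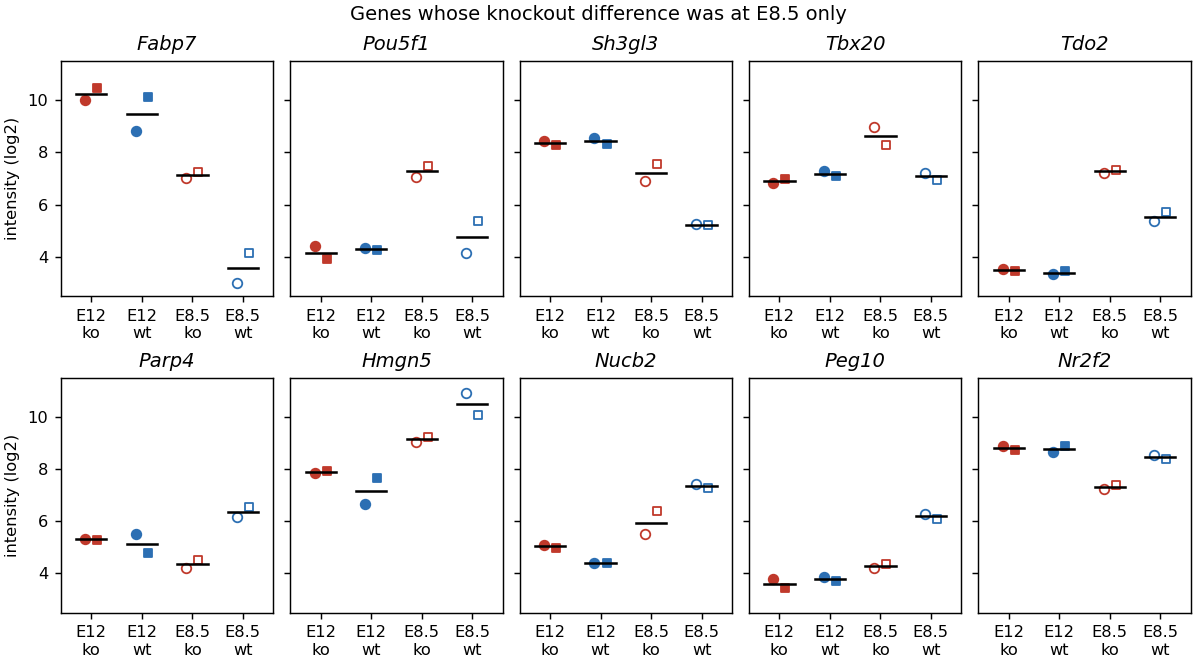
Log2 intensity of 10 genes whose knockout difference was past the threshold at E8.5 only, in each array, with E12 knockout, E12 wild type, E8.5 knockout and E8.5 wild type from left to right, circles marking replicate 1, squares replicate 2 and bars for the mean of 2. In the upper row the E8.5 knockout stands above the E8.5 wild type and in the lower row below it, while the genotypes lie closer together at E12.

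Genes lower in the knockout at E8.5 only made up 34 of the 42 genes with a positive stage-by-genotype difference. Their median knockout difference was 0.11 at E12 and -1.02 at E8.5. Parp4, a poly(ADP-ribose) polymerase of vault particles, read 5.32 and 5.28 in E12 knockout against 5.51 and 4.77 in E12 wild type, then 4.21 and 4.52 in E8.5 knockout against 6.17 and 6.56 in E8.5 wild type. Its knockout minus wild type difference was -2.0 at E8.5, without overlap, and 0.16 at E12, with overlap (stage-by-genotype difference 2.16, SE 0.40).

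Nucb2, a calcium-binding protein and the precursor of nesfatin, read 5.08 and 4.98 in E12 knockout against 4.39 and 4.40 in E12 wild type, then 5.50 and 6.39 in E8.5 knockout against 7.42 and 7.26 in E8.5 wild type (2.03, SE 0.41), and its stage differences had opposite signs. Peg10, an imprinted, retrotransposon-derived gene needed by the placenta, read 3.77 and 3.43 in E12 knockout against 3.86 and 3.71 in E12 wild type, then 4.21 and 4.36 in E8.5 knockout against 6.29 and 6.09 in E8.5 wild type (1.72, SE 0.26). Both wild-type arrays at E8.5 were high in Peg10, and the mean of its list was high in replicate 1 only. Any link between the 2 was not tested.

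Peg10 was the only 1 of 27 trophoblast and placenta genes past the threshold, where 42 of all 18193 genes passed 3. However, 23 of the 27 had a positive difference, beside 9496 of all genes, and the list's median of 1.20 was the furthest from 0. That median was made of -0.06 at E12 and -1.31 at E8.5. It was -0.10 without E8.5 wild type replicate 1 and 2.35 without replicate 2. The 31 immediate early and heat shock genes behaved similarly, with a median of 0.47, the highest array again being E8.5 wild type replicate 1 at 0.96 above the stage mean, and none passed. Without that array their median was -0.06, and without E8.5 wild type replicate 2 it was 0.81. Their largest t values were those of Hspa1a, an inducible HSP70 (1.95, SE 0.73), and Egr2, a zinc finger factor of the hindbrain (-0.87, SE 0.43). The part of that array's markers in the genes of this arm was not tested beyond leaving the array out.

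Endothelial genes passed in both directions, with 1 gene each among 34. The list median of -0.31 turned to 0.09 without E8.5 wild type replicate 1, and was -0.73 without its replicate 2 and -0.13 and -0.52 without replicates 1 and 2 of the E12 wild type. Nr2f2, which sets venous identity, read 8.89 and 8.74 in E12 knockout against 8.64 and 8.88 in E12 wild type, then 7.22 and 7.39 in E8.5 knockout against 8.52 and 8.39 in E8.5 wild type (1.21, SE 0.24), and of its 6 probe sets 4 were at 1.10 to 1.25 and the others at 0.17 and 0.40. Kdr, the receptor for vascular endothelial growth factor on endothelium and its progenitors, read 7.98 and 8.13 in E12 knockout against 8.34 and 8.37 in E12 wild type, then 9.74 and 9.40 in E8.5 knockout against 8.77 and 8.95 in E8.5 wild type (-1.01, SE 0.25). At E8.5 the knockout was lower for Nr2f2 and higher for Kdr, with no overlap for either.

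The remaining genes with the largest positive differences also had their knockout difference at E8.5, but the wild-type arrays of that stage were less alike in several of them. Ptpre, a receptor-type tyrosine phosphatase (1.80, SE 0.58), and Fhod1, a formin of actin filaments (1.49, SE 0.33), were highest in E8.5 wild type replicate 1, at 7.77 and 8.20, against 6.38 and 7.59 in replicate 2. The linker protein Dst (1.70), the xylulose kinase Xylb (1.66), the exchange factor Arhgef7 (1.34) and the centrosomal Nin (1.33) followed. So did the autophagy factor Trp53inp2 (1.30) and the calcium channel Ryr1 (1.24). Only 1 of 2 probe sets had a positive difference for Arhgef7 and for Ryr1, and 3 of 4 for Dst. Hspa4l, a chaperone of the HSP110 family, was at 1.44, and its 5 probe sets were alike in sign. The laminin chain Lamb1 (0.93) and the desmosomal Dsp (0.71) were also in this class and were named after their values were seen.

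Hmgn5, a nucleosome-binding protein (2.12, SE 0.55), and Kdm6a, a histone demethylase that escapes X inactivation (1.47, SE 0.49), lie on the X chromosome. Kdm6a read 7.85 and 8.64 in E12 knockout against 7.15 and 7.97 in E12 wild type, then 8.63 and 8.69 in E8.5 knockout against 9.40 and 9.49 in E8.5 wild type. Of these arrays, E12 knockout replicate 2 and E8.5 wild type replicate 1 had high Xist. Any part of embryo sex in the Kdm6a difference was not tested. Xist itself had the difference 5.51 (SE 2.85) and the Y-linked Uty -1.49 (SE 0.75), and neither passed. The 8 sex-linked genes measured had a median of -0.12, and none passed.

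Genes higher in the knockout at E12 only were few, at 3 of the 42. Itih5, a heavy chain that binds hyaluronan, read 5.89 and 6.22 in E12 knockout against 5.28 and 5.25 in E12 wild type, then 5.93 and 5.88 in E8.5 knockout against 6.77 and 6.18 in E8.5 wild type (1.36, SE 0.33). Rspo2, an enhancer of Wnt signalling, read 7.59 and 7.50 in E12 knockout against 6.77 and 7.06 in E12 wild type, then 3.89 and 3.97 in E8.5 knockout against 4.09 and 3.98 in E8.5 wild type (0.73, SE 0.23), with 1 of 2 probe sets alike in sign. Plcxd3, a phospholipase-like protein, was the third (0.75, SE 0.21). Metap1d, a mitochondrial methionine aminopeptidase, was the only higher gene past the threshold at both stages, with 6.98 and 7.01 in E12 knockout against 6.27 and 6.59 in E12 wild type, then 6.75 and 6.74 in E8.5 knockout against 7.21 and 7.50 in E8.5 wild type (1.17, SE 0.26). Rspo2, Plcxd3 and Metap1d were named after their values were seen.

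**Figure D4:**
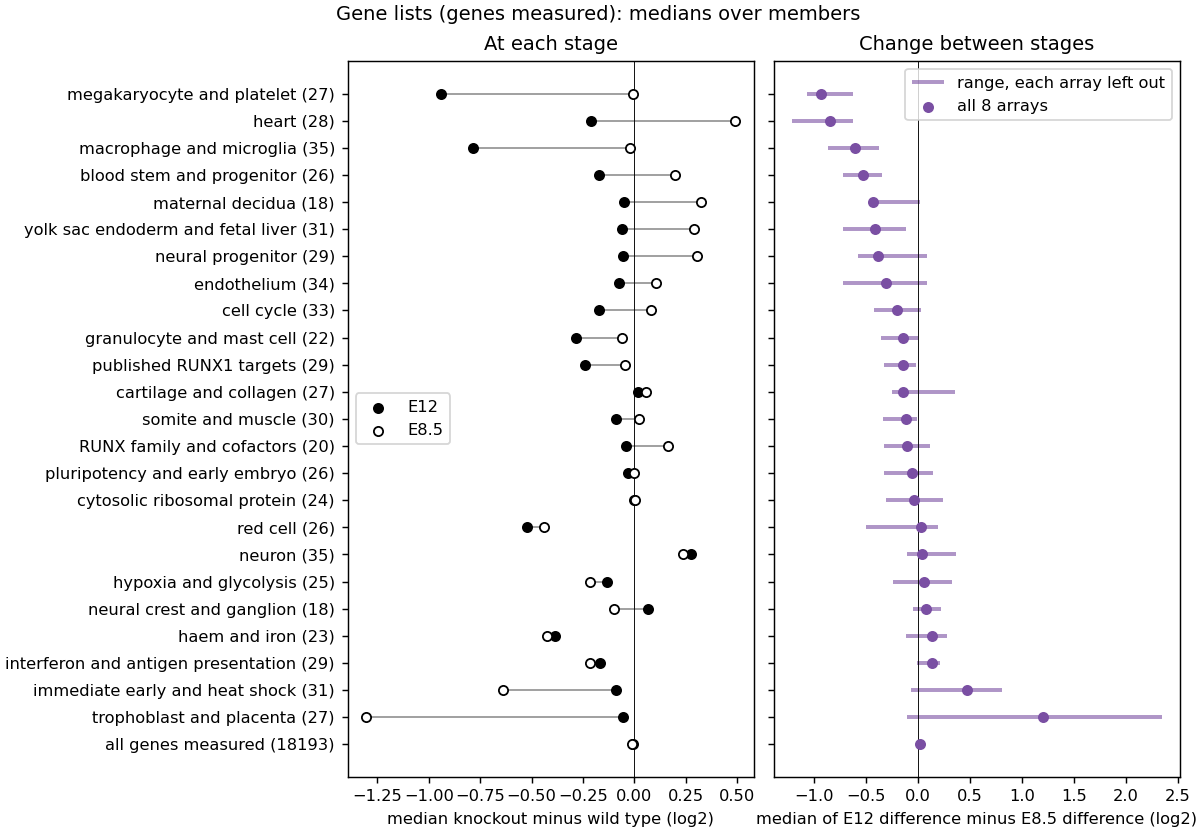
Medians over the members of each gene list except the sex-linked one, with the number of genes measured. On the left, the median knockout minus wild type difference at E12 (filled) and at E8.5 (open), and on the right the median of the E12 difference minus the E8.5 difference with all 8 arrays (point) and its range as each array was left out (bar), all in log2. The platelet list lies at -0.94 and the trophoblast list at 1.20, but the bar of the trophoblast list reaches -0.10.

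In the other lists no member passed and medians lay between -0.21 and 0.14, beside 0.02 for all genes. The 35 neuron genes had none past the threshold, with a median of 0.04 and values of -0.67 for Stmn3, a tubulin-binding stathmin, and 1.26 for Rtn1, a reticulon. The same held for 18 neural crest and ganglion genes at 0.07 (Mitf 0.69, Ednrb 0.75), 27 cartilage and collagen genes at -0.14 (Postn 1.77, Col3a1 1.81) and 25 hypoxia and glycolysis genes at 0.06 (Pdk1 -0.64, Slc2a3 -0.43).

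None passed either among 29 interferon and antigen presentation genes at 0.14 (Ifitm3 -1.42, Ifi35 1.03), 33 cell cycle genes at -0.21 (Cdkn1c 1.18, Aurkb -0.61) and 24 cytosolic ribosomal protein genes at -0.04 (Rps6 -0.46, Rps25 0.36). Each of these 7 medians turned sign without at least 1 of the arrays. The genes in brackets are those with the largest t of each list. A gene that misses the threshold here may still differ, since a difference of differences from 2 arrays per group carries the error of all 4 groups.

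**Figure D5:**
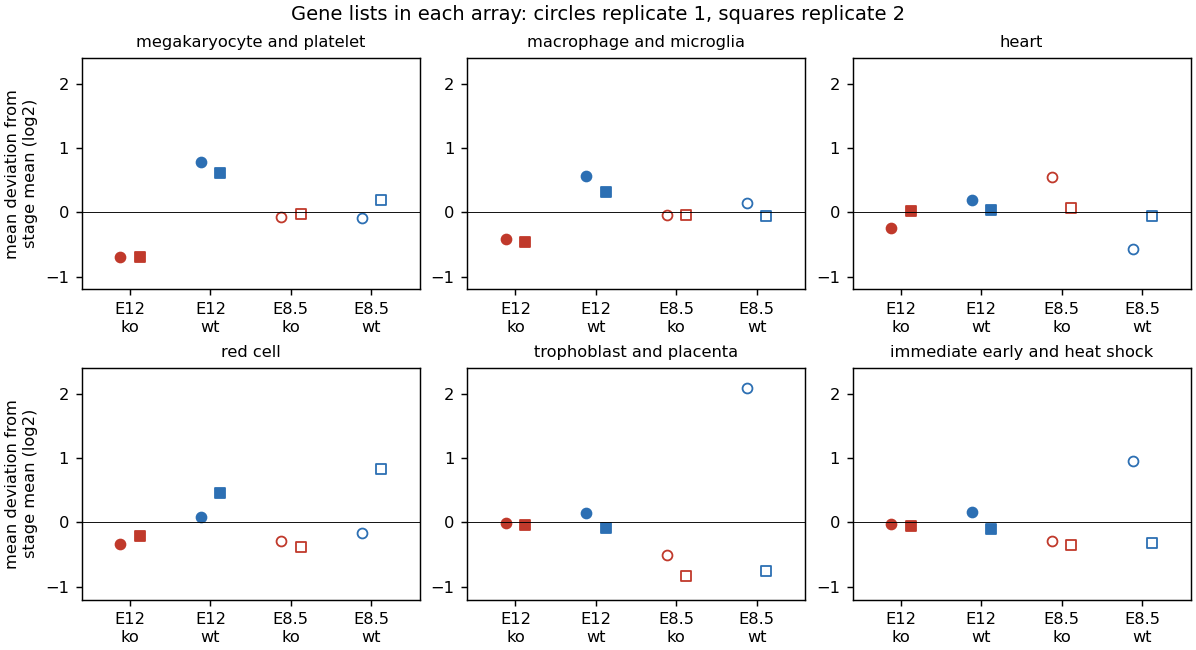
Mean deviation of each array from the mean of its stage over the members of 6 gene lists, in log2, with E12 knockout, E12 wild type, E8.5 knockout and E8.5 wild type from left to right, circles marking replicate 1 and squares replicate 2. The platelet and macrophage lists separate the genotypes at E12 in both replicates and not at E8.5, while the red cell, trophoblast and immediate early lists at E8.5 turn on single wild-type arrays (0.83, 2.09 and 0.96).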

How the data were processed

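Total RNA of knockout and wild-type embryo propers was amplified in 2 rounds, labelled and hybridised to Affymetrix whole-genome mouse arrays, per the study's methods. The authors background-corrected, normalised and summarised the probe intensities by the Robust Multi-array Analysis algorithm. The deposited intensity values are linear. Joint or separate normalisation of the stages was not given in the sources used here. Values were taken to log2. Of 45101 probe sets, 64 controls were left out, and 34945 of the 45037 tested had 1 gene symbol, 932 several and 9160 none, by the platform annotation. No filter on dim probe sets was used and no detection calls were at hand, so values near the array medians of 4.96 to 5.20 may be background. The number of arrays, 2 in each group, limits the precision.

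Linear models of limma 3.58.1 in R 4.3.3 were fitted with 1 mean per group and empirical Bayes moderation over all probe sets. Called means a Benjamini-Hochberg adjusted p below 0.05. The other threshold, an absolute t of 3, carried no correction for multiple testing. The script was tested on simulated data. Each gene was represented by its probe set of highest mean. Named genes were the first 15 of each sign by size among called genes and those past the t threshold that kept their sign without each array, up to 4 per list past the threshold or else the 2 of highest t, and Runx1. Members, lists and rules were chosen with earlier results of these data known. Alternatives were 2 replicate blocks, each array left out, quantile normalisation over all arrays or within stages, dim probe sets removed, array weights of 2 kinds, trended robust moderation and a pseudocount of 32. Promoter windows came from RefSeq on GRCm38.p6 and were matched by gene symbol.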

Additional observations from a re-analysis of the deposited data

Results flagged for a closer look

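For 2 genes the knockout difference was called different between the stages. These were Pf4, with a stage-by-genotype difference of -5.53 (limma adjusted p = 0.0202), and Ctss, with -3.43 (limma adjusted p = 0.0381). Pf4 was lower in both knockout arrays at E12 than in either wild-type array, by 5.71 on average, and by 0.17 at E8.5. Ctss was lower in both knockout arrays at E12 by 3.29 on average and was 0.14 higher in the knockout at E8.5. With 2 arrays per group, no group could be tested for a single outlying array. Neither call held with replicate number fitted as a block, over all arrays or within each stage.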

How the results depend on the processing

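Of all 45037 probe sets, 16408 (36.4%) kept their sign without each array. All 310 past an absolute t of 3 kept it in every alternative where they were tested, as follows closely from the threshold itself. Their number did not hold: leaving out 1 array gave 162 to 2933 probe sets past the threshold and 0 to 718 called, with 162 without E12 knockout replicate 1, 188 without E12 knockout replicate 2, 673 and 1115 without E12 wild type replicates 1 and 2, and 1787 and 2933 without E8.5 wild type replicates 1 and 2. Removing dim probe sets left 81 and a pseudocount of 32 gave 595. The lower share was 61.9% as reported, 31.2% without E12 wild type replicate 2, 34.8% without E8.5 wild type replicate 1, 49.0% without replicate 2, 70.5% after quantile normalisation over all arrays and 69.2% within stages. Called probe sets numbered 8 with trended robust moderation and 1 each with within-stage quantile normalisation, the dim filter and the pseudocount.

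Without each array Pf4 ranged from -5.77 to -5.29 and Ctss from -3.53 to -3.33. After quantile normalisation over all arrays Pf4 was -6.35 and Ctss -3.91. Pf4 was not called with the pseudocount (-4.57), nor Ctss after quantile normalisation within stages (-3.46) or the dim filter (-3.43). Runx1 ranged from -0.66 to 0.012, its sign turning without E12 wild type replicate 1. Csf1r, at 0.10 with all arrays and between -0.93 and 1.13 without 1, turned to -0.16 without E12 wild type replicate 2, -0.060 without E8.5 knockout replicate 1, -0.93 without E8.5 wild type replicate 1, -0.44 and -0.0206 with quantile normalisation over all arrays and within stages, and -0.076 with the pseudocount. No other named gene changed sign. Of the 425 list medians recomputed, 75 moved beyond the spread between replicates. The causes were not tested.

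Replicate numbers were shared between groups. Same-numbered arrays deviated together within stages (correlations 0.17 at E12 and 0.37 at E8.5) and not across stages (-0.12 to 0.08). No label stated a pairing, and the main fit used none. Whether same-numbered arrays of a stage were pairs was not tested. With the replicate block 407 probe sets passed and 0 were called (846 at an unadjusted p below 0.05), with Pf4 at -5.53 (adjusted p = 0.138) and Ctss at -3.43 (0.211). With the block within each stage 648 passed and 0 were called (1182 unadjusted), at 0.321 and 0.676.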
